A study of Mus musculus with 6 samples.

Results

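The enzymes that make serine, carry one-carbon units on folate and build purine and pyrimidine nucleotides were compared between uteri given progesterone and uteri given oil. The set, chosen with earlier results of these data known, was a list of 31 genes named by their place in these pathways. Of these, 30 had a probe set that the platform annotation assigns to that gene alone, out of 18193 genes measured in this way, and each gene was read from its brightest probe set. Impdh2 had no such probe set and was not analysed here.

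Cells make serine from a glycolytic intermediate, and serine passes a carbon to tetrahydrofolate in the cytosol or in the mitochondrion. The mitochondrial arm exports formate, and the folate-bound carbon is used to close the purine ring, to make thymidylate and to remethylate homocysteine. Purines are built step by step on phosphoribosyl pyrophosphate, whereas the pyrimidine ring is closed first and then joined to it. A growing tissue draws on these routes for RNA, DNA and nucleotide cofactors, and the uterine lining alternates between growth and differentiation under ovarian steroids.

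All animals were 8-week-old female mice of mixed background homozygous for floxed Gata2 (f/f), without a recombinase named in the labels, so both groups had the same genotype. Ovaries had been removed at 6 weeks of age, which leaves the uterus with little steroid of its own. The injection was 100 µl of sesame oil, alone or with 1 mg of progesterone, and the uterus was taken 6 h later. There were 3 one-colour Affymetrix arrays per group. The RNA is said to have been pooled from 3 mice, and it is not stated whether each array held its own pool, so each p-value reflects only how far these arrays differ, which may be technical spread.

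Levels are log2 values per probe set as the authors deposited them, so a difference of 1 is a 2-fold change, and levels of different genes are not compared because probes differ in brightness. The 12 uterine markers were all present. The smooth muscle actin Acta2 lay between 13.75 and 13.91 and the epithelial keratin Krt8 between 10.78 and 11.86, while the gland factor Foxa2 was lowest, between 7.25 and 7.95. Of the 12, 5 passed the threshold. The progesterone receptor Pgr was 2.08-fold and the oestrogen receptor Esr1 1.37-fold lower with progesterone, and Hoxa10, Hoxa11 and Hand2 were 1.84-fold, 2.18-fold and 1.55-fold higher. Krt18, another epithelial keratin, was 1.69-fold lower with its groups apart (limma adjusted p = 0.0589). S100a8, a calcium-binding protein of neutrophils, was between 11.82 and 12.48 on oil replicate 3 and progesterone replicates 2 and 3, and between 4.34 and 5.01 on the remaining arrays. S100a9 was high on the same 3 arrays. Each of the 8 measured neutrophil markers was higher on these 3 arrays than on any other array, though by unlike amounts. Csf3r was at 6.97, 5.40 and 7.54 on oil replicate 3 and progesterone replicates 2 and 3, and between 4.08 and 4.70 elsewhere. Ngp and Camp were at 9.05 and 7.88 on progesterone replicate 2 and at 5.51 and 5.20 on oil replicate 3. On progesterone replicate 3 they were at 4.09 and 4.69, barely above the highest remaining array (4.04 and 4.61). The summed log2 level of the 8 measured neutrophil markers ran from 36.1 to 62.26 with oil and from 35.6 to 63.81 with progesterone. The 7 macrophage and T cell markers were each higher on the same 3 arrays too, and none passed the threshold. Ptprc, a marker of white blood cells, was at 9.83, 9.38 and 9.88 there and between 7.61 and 8.64 elsewhere. The median of 15 proliferation markers was 8.62 on oil replicate 3 and 8.40 on progesterone replicate 3, against 6.98 to 7.81 on the other arrays. None of these 15 passed the threshold in limma, and 3, Bub1b, Mcm6 and Mcm7, had an unadjusted p under 0.05 with a negative change. With the replicate number as a block these 3 were called lower (limma adjusted p = 0.0107, 0.019 and 0.0403). The 4 measured adipocyte markers moved with the groups. Their median ran from 5.72 to 6.48 with oil and from 4.12 to 5.84 with progesterone, and all 4 changes were negative, with a median of -1.16. None of the 4 passed in limma and 3 had an unadjusted p under 0.05, and the block called those 3 lower: Adipoq (0.0135), Fabp4 (0.00765) and Cidec (0.0338). Of 5 liver transcripts, Alb was at 8.71 on oil replicate 3 and at or below 4.29 elsewhere. Apoa1 (6.82), Apoc3 (4.85) and Ahsg (4.66) were also highest on oil replicate 3. The changes of Alb, Apoa1, Apoc3 and Ahsg were negative and did not pass. Only Ttr went the other way, 6.09-fold higher with progesterone (limma adjusted p = 0.0334). Of 5 skeletal muscle transcripts Acta1 was 2.98-fold higher (0.0149), and the other 4 did not pass. The part of these cells in the values of the enzymes was not tested. In whole tissue, fewer cells of a type and less RNA per cell cannot be told apart.

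With progesterone 13 of the 30 measured enzymes were higher and 0 were lower (limma, Benjamini-Hochberg adjusted p under 0.05 over all genes). Over all genes 5.92% were called higher and 5.83% lower by the same test. Since the list was chosen with earlier results of these data known, its shares beside those of all genes are descriptive only. At an unadjusted p under 0.05, 18 of the enzymes were higher and 1, Paics, was lower, beside 12.2% and 13.8% of all genes. The median log2 change of the 30 enzymes was 0.45, against -0.02 over all genes, and 27 of the 30 had a positive change. All 3 progesterone arrays lay above all 3 oil arrays for 17 of the enzymes, which is 56.7%, against 14.5% of all genes. The opposite order was seen in 0 of the enzymes and in 2888 of all 18193 genes. By step, the calls fell on 1 of 3 serine enzymes, 3 of 5 cytosolic folate enzymes, 3 of 4 mitochondrial folate enzymes, 4 of 12 purine enzymes and 2 of 6 pyrimidine enzymes. The median changes of these steps were 0.52, 0.49, 0.73, 0.20 and 0.40.

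**Figure D1:**
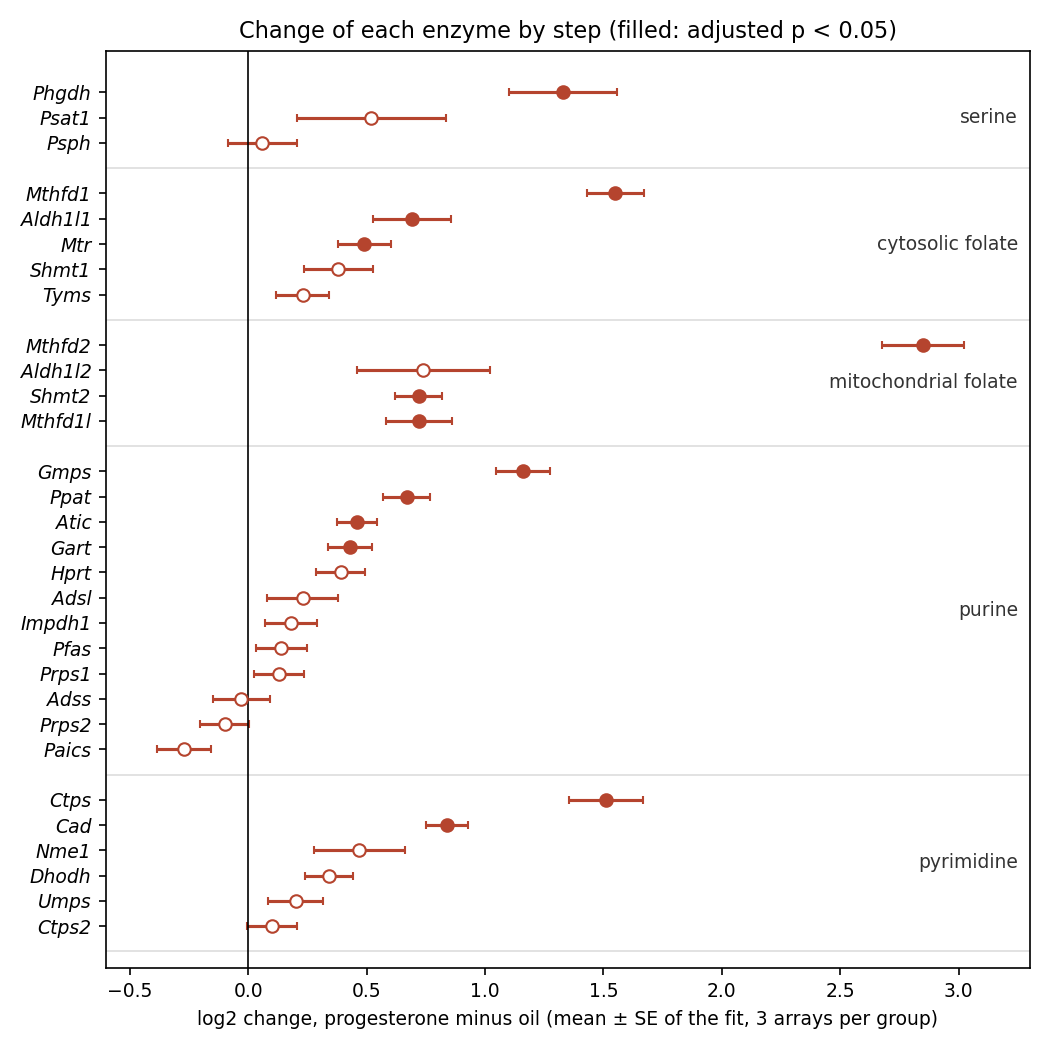
Log2 change (progesterone minus oil, x axis) of the 30 measured enzymes, grouped by step, as points with the SE of the limma fit (3 arrays per group). Filled points passed an adjusted p under 0.05: the 13 filled points all lie to the right of 0, and Mthfd2 at 2.85 stands farthest out.

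When 1 array was left out, between 7 and 12 enzymes passed and 0 were lower, while 2.08% to 4.66% of all genes were higher. The lowest count, 7, came without oil replicate 1 and also without progesterone replicate 2, and it was 8 without oil replicate 2. Mthfd1, Shmt2, Mthfd2, Ppat, Gmps, Cad and Ctps passed in each of the 6 fits that leave out 1 array. Without oil replicate 3 and progesterone replicate 3 together, the pair with high proliferation markers, 8 enzymes passed, against 3.22% of all genes. Without the 3 arrays with high S100a8 none of 18193 genes passed in limma, while 3379 had an unadjusted p under 0.05. Only 1 progesterone array was then left, which is assumed to vary like the oil arrays. In that fit 28 of the 30 enzymes kept their direction. Its arrays are part of those behind the main changes, so this agreement is partly built in. The log2 change there was 3.18 for Mthfd2, 1.80 for Mthfd1, 1.54 for Ctps, 1.40 for Gmps and 1.26 for Phgdh, and 0.10 for Psat1 and 0.08 for Aldh1l2.

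**Figure D2:**
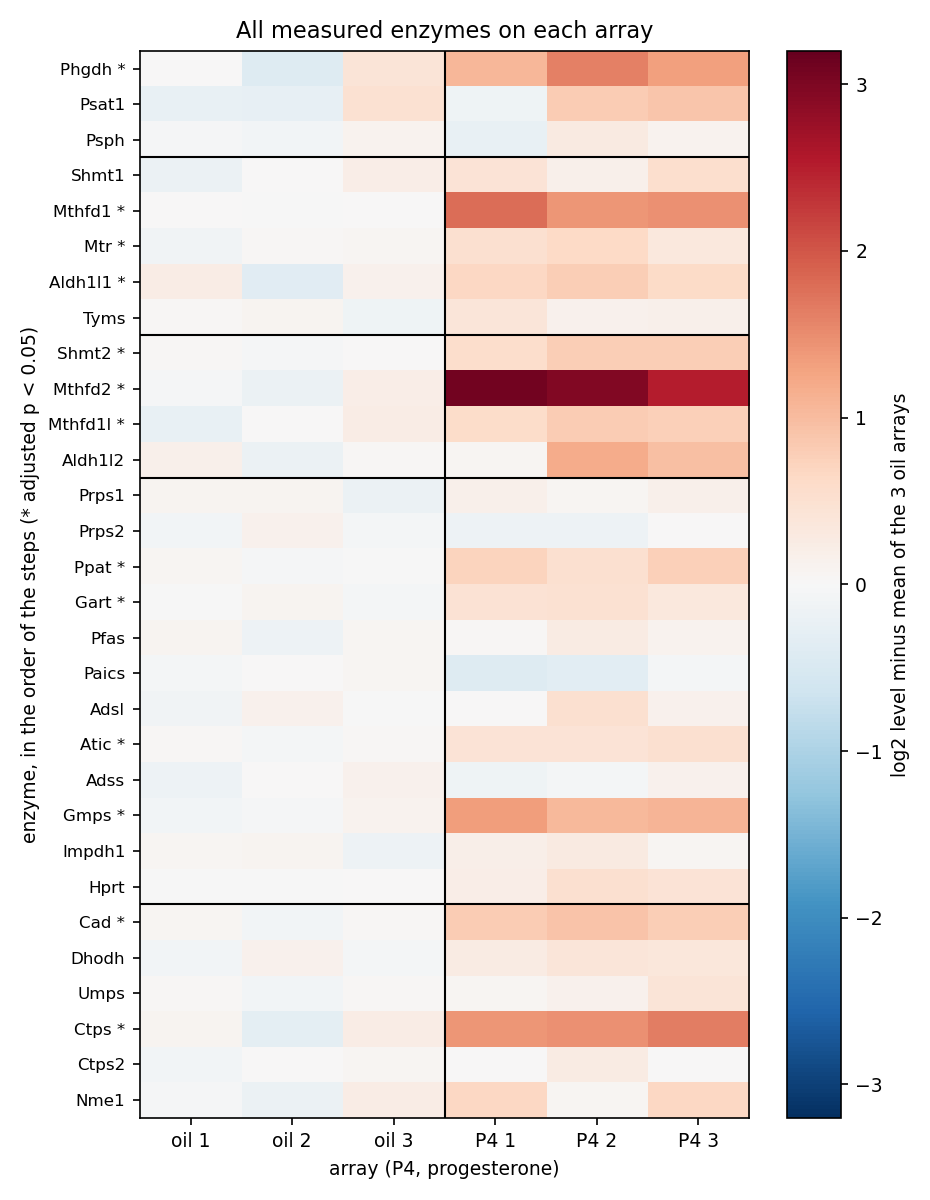
Each row is an enzyme in the order of the steps and each column an array, and the colour gives the log2 level minus the mean of the 3 oil arrays. An asterisk marks the 13 enzymes past the threshold, and those with small changes, such as Gart and Atic, are pale. Psat1 and Aldh1l2 are pale on progesterone replicate 1 and redder on progesterone replicates 2 and 3.

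In serine synthesis the first enzyme rose and the later ones did not pass. Phgdh, phosphoglycerate dehydrogenase, which commits the glycolytic intermediate to serine, was at 8.39, 7.97 and 8.79 on the oil arrays and at 9.44, 10 and 9.69 on the progesterone arrays. The groups did not overlap, and the rise was 2.51-fold (log2 change 1.33 ± 0.228 SE, limma adjusted p = 0.0141). Of its 4 probe sets, 3 passed as higher with every probe set tested on its own. They carry the suffix that Affymetrix gives to sets whose probes can match other transcripts, so their levels may include those. The call of Phgdh ended without oil replicate 1 (adjusted p = 0.0527) and without progesterone replicate 2 (0.0523).

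Psat1, the phosphoserine aminotransferase of the second step, was at 7.24, 7.21 and 7.95 with oil and at 7.33, 8.28 and 8.35 with progesterone. Its high arrays were the 3 with high S100a8 in both groups, and the groups overlapped (log2 change 0.52 ± 0.315 SE, limma adjusted p = 0.369). All measured neutrophil, macrophage and T cell markers were also higher on these 3 arrays than on the others, some narrowly. The part of these cells in the Psat1 values was not tested. Psph, the phosphatase that releases serine, had a log2 change of 0.06 (adjusted p = 0.86), and its change was -0.05 without progesterone replicate 2.

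The folate enzymes of the mitochondrion held the largest change of the set. Mthfd2, the mitochondrial methylenetetrahydrofolate dehydrogenase and cyclohydrolase, was at 6.30, 6.15 and 6.54 with oil and at 9.41, 9.28 and 8.84 with progesterone. Every progesterone array was more than 2 log2 units above every oil array, and the rise was 7.19-fold (log2 change 2.85 ± 0.173 SE, limma adjusted p = 0.0011). Its second probe set gave a log2 change of 3.82, from a mean of 5.42 to 9.24. The promoter is shown because this gene changed most. It is the RefSeq window of GRCm38.p6 at chr6:83317555-83317854, minus strand, from 250 bases before the start site to 50 after it, and it holds none of the 3 motifs searched below, so no base is in capitals.
Mthfd2: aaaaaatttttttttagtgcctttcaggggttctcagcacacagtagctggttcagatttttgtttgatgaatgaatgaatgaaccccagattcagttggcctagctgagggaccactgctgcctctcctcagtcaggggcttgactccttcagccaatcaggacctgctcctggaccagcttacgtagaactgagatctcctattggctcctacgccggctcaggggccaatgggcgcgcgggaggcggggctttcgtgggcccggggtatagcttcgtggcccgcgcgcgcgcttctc

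Shmt2, the mitochondrial serine hydroxymethyltransferase that passes the serine carbon to folate, was at 8.10, 8.02 and 8.06 with oil and at 8.62, 8.86 and 8.85 with progesterone. The oil arrays lay within 0.08 of each other, and the rise was 1.64-fold (log2 change 0.72 ± 0.0996 SE, limma adjusted p = 0.00737). This probe set has the same suffix as those of Phgdh, as does the one used for Nme1. Of the 3 other sets of Shmt2, 1 passed at 0.48, and the only set without the suffix gave 0.58 and did not (limma adjusted p = 0.0502 with every probe set tested). Mthfd1l, the synthetase that releases formate in the mitochondrion, was at 6.58, 6.82 and 7.05 with oil and at 7.40, 7.64 and 7.58 with progesterone, or 1.65-fold up (log2 change 0.72 ± 0.139 SE, limma adjusted p = 0.0198). The call was lost without oil replicate 1 (adjusted p = 0.059), oil replicate 2 (0.0794), progesterone replicate 2 (0.0724) or progesterone replicate 3 (0.0571).

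Aldh1l2, the mitochondrial formyltetrahydrofolate dehydrogenase, which oxidises the folate-bound carbon to carbon dioxide, was at 5.40, 5.05 and 5.28 with oil and at 5.31, 6.44 and 6.21 with progesterone. Progesterone replicate 1 lay among the oil arrays (log2 change 0.74 ± 0.28 SE, limma adjusted p = 0.145). Without that array the change was 1.08 and the gene passed (adjusted p = 0.0121). Progesterone replicate 1 was also the progesterone array with the lowest S100a8, at 5.01. Whether the 2 are linked was not tested.

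Among the cytosolic folate enzymes Mthfd1 rose most. Mthfd1 combines dehydrogenase, cyclohydrolase and synthetase activities in one protein and turns formate back into folate-bound carbon. It was at 8.85, 8.81 and 8.84 with oil and at 10.63, 10.24 and 10.29 with progesterone, a 2.93-fold rise (log2 change 1.55 ± 0.121 SE, limma adjusted p = 0.00142). The oil values were nearly identical, and the other 2 probe sets of Mthfd1 also passed, with log2 changes of 1.64 and 1.89.

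Mtr, the methionine synthase that takes its methyl group from folate, was at 6.45, 6.6 and 6.63 with oil and at 7.06, 7.20 and 6.89 with progesterone (1.40-fold up, log2 change 0.49 ± 0.111 SE, limma adjusted p = 0.0337). Aldh1l1, the cytosolic formyltetrahydrofolate dehydrogenase, was at 5.28, 4.68 and 5.18 with oil and at 5.70, 5.84 and 5.66 with progesterone (1.61-fold up, log2 change 0.69 ± 0.165 SE, limma adjusted p = 0.0395). The groups of both genes lay apart, but neither call was firm. That of Aldh1l1 ended without any 1 array (adjusted p 0.0551 to 0.125). That of Mtr held only without progesterone replicate 3, with an adjusted p of up to 0.117 otherwise. With all probe sets of a gene averaged, Mtr had an adjusted p of 0.186 and Aldh1l1 of 0.055.

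Shmt1, the cytosolic serine hydroxymethyltransferase, was at 7.55, 7.75 and 7.95 with oil and at 8.20, 7.91 and 8.29 with progesterone (log2 change 0.38 ± 0.145 SE, limma adjusted p = 0.146). Its 4 probe sets differed. One of the sets not used gave 0.65 and passed with every probe set tested (adjusted p = 0.0159), and the mean of the 4 sets gave 0.54 (adjusted p = 0.0261). Tyms, thymidylate synthase, lay between 3.52 and 4.04 on all arrays and had a log2 change of 0.23 (limma adjusted p = 0.259). Control probe sets for TrpnX, a bacterial sequence, lay between 2.87 and 3.34, so Tyms was measured close to background.

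**Figure D3:**
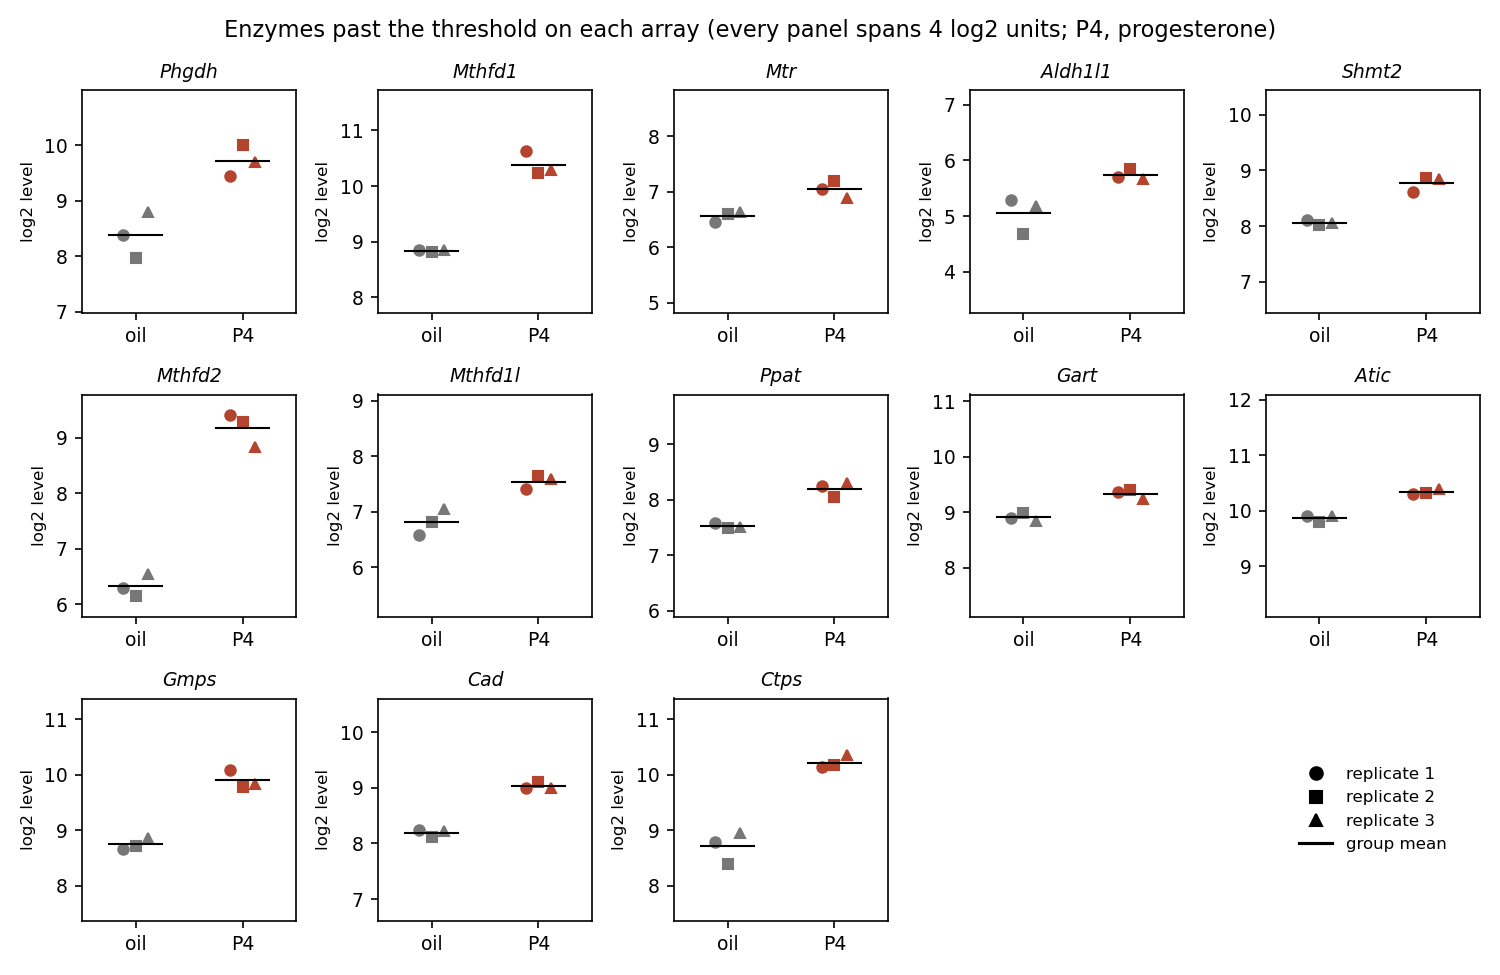
Log2 level (y axis, 4 units in every panel) of the 13 enzymes past the threshold on each array, with oil in grey and progesterone (P4) in red, replicates as marker shapes and the group mean as a line. No panel shows an overlap between the groups. The oil values of Mthfd1, between 8.81 and 8.85, are nearly flat, and those of Phgdh spread from 7.97 to 8.79.

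The compartments were compared through the differences between changes, per array, over 6 pairs of related enzymes (exact two-sided permutation test of 3 against 3 arrays, whose smallest p is 0.1, with Benjamini-Hochberg adjustment over the 6 pairs). Mthfd2 changed by 1.29 ± 0.177 (SE) log2 units more than Mthfd1 (exact p = 0.1, adjusted 0.2), and the groups lay apart in this difference. Mthfd1l changed by less than Mthfd1, with a difference of -0.83 ± 0.239 SE (exact p = 0.1, adjusted 0.2), and the groups again lay apart. For Shmt2 against Shmt1 the difference was 0.33 ± 0.204 SE (exact p = 0.2, adjusted 0.24), and the groups overlapped. For Aldh1l2 against Aldh1l1 it was 0.06 ± 0.333 SE (exact p = 1), an error wide enough that neither a shared nor a separate change can be read from it.

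**Figure D4:**
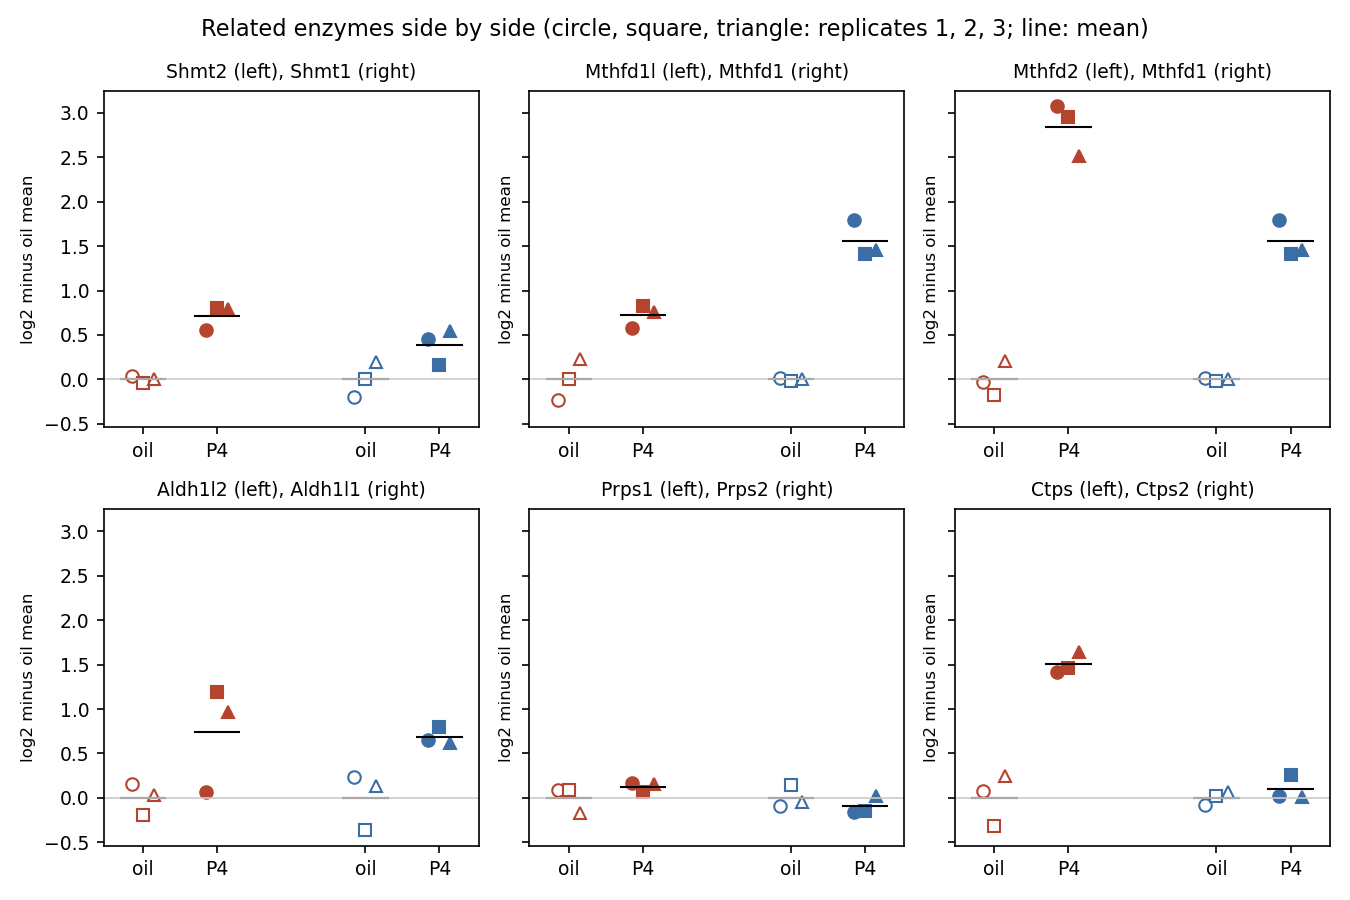
Log2 level minus the mean of that gene's oil arrays (y axis) for 6 pairs of related enzymes, oil as open and progesterone (P4) as filled markers, with the replicates as circle, square and triangle and lines for means. Mthfd2 rises by 2.85 beside 1.55 for Mthfd1, and Ctps by 1.51 beside 0.10 for Ctps2. Neither Prps1 nor Prps2 passed the threshold.

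In purine synthesis Ppat, Gart, Atic and Gmps rose, and the other 8 measured enzymes did not pass. The supply of phosphoribosyl pyrophosphate comes from Prps1 and Prps2. Prps1 was at 8.61, 8.6 and 8.34 with oil and at 8.68, 8.58 and 8.67 with progesterone (log2 change 0.13 ± 0.105 SE, limma adjusted p = 0.528). Prps2 was at 9.32, 9.55 and 9.36 with oil and at 9.25, 9.26 and 9.43 with progesterone (log2 change -0.10 ± 0.104 SE, limma adjusted p = 0.643). The groups of both overlapped, and the difference between their changes was 0.22 ± 0.109 SE (exact permutation p = 0.2, adjusted 0.24).

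Ppat, the amidophosphoribosyltransferase of the committed step, was at 7.58, 7.49 and 7.51 with oil and at 8.24, 8.05 and 8.30 with progesterone. Every progesterone array was above every oil array, and the rise was 1.59-fold (log2 change 0.67 ± 0.0989 SE, limma adjusted p = 0.00874). A second probe set of Ppat gave 0.78 and passed, and another, at background, gave -0.08. The call ended without oil replicate 3 and progesterone replicate 3 together (adjusted p = 0.0565).

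Gart, a protein with 3 activities early in the line, was at 8.89, 8.99 and 8.84 with oil and at 9.37, 9.40 and 9.24 with progesterone (1.35-fold up, log2 change 0.43 ± 0.0929 SE, limma adjusted p = 0.0285). Atic, whose pair of activities inserts the last folate-borne carbon and closes the ring, was at 9.91, 9.80 and 9.91 with oil and at 10.30, 10.32 and 10.39 with progesterone (1.38-fold up, log2 change 0.46 ± 0.0858 SE, limma adjusted p = 0.0175). Both genes take a carbon from folate, and both changes were small but larger than the spread within groups. The call of Gart held only without progesterone replicate 3, with an adjusted p between 0.0665 and 0.0987 when another array was left out. That of Atic ended without oil replicate 1 (0.0589), oil replicate 2 (0.0784) or progesterone replicate 2 (0.0568). Of the other probe sets, 2 of 3 for Gart and the single other set of Atic also passed.

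The other enzymes of the ring-building line did not pass. Pfas, the amidotransferase of the line, had a log2 change of 0.14 ± 0.109 SE (limma adjusted p = 0.506), and Adsl, adenylosuccinate lyase, of 0.23 ± 0.149 SE (0.414). Paics, the carboxylase and synthetase, was at 11.27, 11.34 and 11.41 with oil and at 10.92, 11.01 and 11.27 with progesterone. Its progesterone values were level with or below the lowest oil value, and its log2 change of -0.27 ± 0.115 SE was the most negative of the set (limma adjusted p = 0.189). All 3 of its probe sets had a negative change, from -0.27 to -0.05.

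Ppat and Paics are neighbours on chromosome 5, on opposite strands, and their RefSeq start sites are placed so that the first 277 bases of each overlap the other. Their changes therefore differed at 1 locus, 0.67 against -0.27, although this pair was singled out after its values were seen and the difference was not tested. Their promoter windows are shown for that reason, with that of Atic, the only enzyme past the threshold whose window holds the E-box CACGTG, which is in capitals. They are windows of the same kind on GRCm38.p6, at chr5:76951529-76951828 (minus strand), chr5:76951052-76951351 (plus strand) and chr1:71556906-71557205 (plus strand).
Ppat: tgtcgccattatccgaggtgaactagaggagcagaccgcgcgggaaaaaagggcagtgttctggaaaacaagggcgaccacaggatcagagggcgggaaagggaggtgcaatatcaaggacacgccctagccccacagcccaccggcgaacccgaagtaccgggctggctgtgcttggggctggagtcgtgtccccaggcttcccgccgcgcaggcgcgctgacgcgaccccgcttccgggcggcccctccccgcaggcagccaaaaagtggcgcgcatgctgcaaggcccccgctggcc
Paics: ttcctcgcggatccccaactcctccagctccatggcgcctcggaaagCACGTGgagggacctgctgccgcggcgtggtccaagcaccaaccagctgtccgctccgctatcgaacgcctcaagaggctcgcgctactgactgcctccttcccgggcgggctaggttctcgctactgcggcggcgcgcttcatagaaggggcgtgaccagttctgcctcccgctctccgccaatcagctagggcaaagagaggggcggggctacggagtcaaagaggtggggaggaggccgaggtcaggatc
Atic: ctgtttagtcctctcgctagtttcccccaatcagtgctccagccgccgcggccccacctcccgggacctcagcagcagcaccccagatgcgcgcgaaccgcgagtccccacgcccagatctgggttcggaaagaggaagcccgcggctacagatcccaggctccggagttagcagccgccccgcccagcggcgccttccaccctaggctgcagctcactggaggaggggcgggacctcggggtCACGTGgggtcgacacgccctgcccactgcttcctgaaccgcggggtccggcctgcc

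RefSeq windows of 300 bases were found for 28 of the 31 listed genes, 34 windows in all, since some genes have several start sites. CACGTG, the E-box bound by Myc-type and clock factors, was in 6 of the 34 windows (17.6%) and in 7.15% of the 32851 windows of all genes. Those 6 belonged to Atic, Impdh2, Nme1, Paics and Tyms, and among the 14 windows of enzymes past the threshold it was in 1. TGATGNAA, the core of the amino acid response element, was in 1 window, that of Prps1, against 3.97% of all windows. ACANNNTGT, the core of the palindromic element of progesterone and glucocorticoid receptors, was in 1 window, of Ctps2, against 6.85%. Both strands were searched, and each motif was counted on its own. The windows of the set were rich in G and C, with a median of 61.0% against 52.7% over all windows. The median was 59.3% for enzymes past the threshold and 61.0% for the others. A match or its absence describes these letters only.

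After the ring is closed the line divides toward GMP and AMP, and of Gmps, Impdh1 and Adss only Gmps passed. Gmps, the GMP synthetase, was at 8.66, 8.72 and 8.86 with oil and at 10.09, 9.79 and 9.83 with progesterone, a 2.23-fold rise and the largest of the purine enzymes (log2 change 1.16 ± 0.114 SE, limma adjusted p = 0.00286). Its other probe sets gave 0.66, which passed, and 0.75, which did not (adjusted p = 0.0931). Impdh1, the inosine monophosphate dehydrogenase measured here, had a log2 change of 0.18 (adjusted p = 0.359). Adss, the adenylosuccinate synthase of the AMP branch, was at 9.72, 9.88 and 10.02 with oil and at 9.73, 9.80 and 10.01 with progesterone, with a log2 change of -0.03 (adjusted p = 0.931). The difference between Gmps and Adss was not tested.

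Hprt, the salvage enzyme that returns hypoxanthine and guanine to nucleotides and is often used as a reference transcript, was at 9.76, 9.75 and 9.79 with oil and at 9.99, 10.28 and 10.21 with progesterone. The groups lay apart, by a log2 change of 0.39 ± 0.103 SE that fell just outside the threshold (limma adjusted p = 0.0515). It passed with the replicate number as a block (0.0482) and in 6 other settings, with an adjusted p between 0.0262 and 0.0435. With that block 15 of the enzymes were higher, among 7.6% of all genes.

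In pyrimidine synthesis Cad and Ctps rose and the other enzymes did not pass. Cad, which combines the opening activities of the line, was at 8.25, 8.11 and 8.22 with oil and at 9.0, 9.11 and 8.99 with progesterone, a 1.79-fold rise (log2 change 0.84 ± 0.0896 SE, limma adjusted p = 0.00348). A second probe set of Cad passed at 0.67, and the dimmest gave 0.22. Dhodh, the mitochondrial dehydrogenase of the next step, was at 7.33, 7.57 and 7.36 with oil and at 7.69, 7.81 and 7.78 with progesterone, apart between groups but not past the threshold (log2 change 0.34 ± 0.101 SE, limma adjusted p = 0.0749). Umps, which makes UMP, had a log2 change of 0.20 (adjusted p = 0.336), with groups that lay narrowly apart.

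Ctps, the CTP synthase, was at 8.79, 8.39 and 8.95 with oil and at 10.13, 10.17 and 10.35 with progesterone, a 2.84-fold rise (log2 change 1.51 ± 0.156 SE, limma adjusted p = 0.00321). Its isozyme Ctps2 was at 8.68, 8.79 and 8.83 with oil and at 8.79, 9.02 and 8.78 with progesterone (log2 change 0.10 ± 0.104 SE, limma adjusted p = 0.64). Ctps thus changed by 1.41 ± 0.21 SE log2 units more than Ctps2 (exact permutation p = 0.1, the smallest the design allows, adjusted 0.2), and the groups lay apart in the difference. The other probe sets of Ctps2 had changes of -0.11 and -0.29, and the mean of its sets gave -0.10.

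Nme1, a nucleoside diphosphate kinase that makes triphosphates, depended on the probe set. The one used was at 9.14, 9.0 and 9.42 with oil and at 9.86, 9.26 and 9.85 with progesterone (log2 change 0.47 ± 0.192 SE, limma adjusted p = 0.175, and 0.0429 with the replicate block). The other was at 8.38, 8.45 and 9.18 with oil and at 9.50, 9.96 and 10.29 with progesterone, without overlap, and its change of 1.25 passed with every probe set tested (adjusted p = 0.0294). Over the set, 20 genes had several probe sets, and of the 39 sets not used 14 passed as higher and 0 as lower, beside 4.01% and 3.76% of the 45037 probe sets in that fit. Of the 11 enzymes past the threshold with several sets, 9 had another that passed.

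Among genes that feed or drain these pathways, those past the threshold were spread over all 5 groups listed. Of 69 measured, 9 were higher and 2 lower, which is 13.0% higher beside 5.92% of all genes, and their median log2 change was 0.11. This list too was chosen with earlier results of these data known. Enzymes that use serine, glycine or the methyl group were among the largest. Cth, the lyase that makes cysteine from cystathionine, was at 7.56, 7.05 and 7.45 with oil and at 9.45, 9.12 and 8.92 with progesterone, or 3.51-fold up (log2 change 1.81 ± 0.182 SE, limma adjusted p = 0.0029). Gnmt, the glycine methyltransferase, was at 5.80, 5.81 and 6.01 with oil and at 7.81, 7.77 and 7.40 with progesterone, or 3.45-fold up (log2 change 1.79 ± 0.135 SE, limma adjusted p = 0.00137). In both the groups lay far apart, and these were 2 of 11 measured genes of serine use and the methionine cycle past the threshold.

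In folate transport and use 3 of 16 were higher and 0 lower, and 7 had an unadjusted p under 0.05 in limma. These are 18.8% higher beside 5.92% of all genes, and 7 of 16 beside 26% of all genes at the unadjusted threshold. Slc25a32, the mitochondrial folate carrier, was 1.80-fold up (log2 change 0.85 ± 0.101 SE, limma adjusted p = 0.0046). Gldc, the decarboxylase of the glycine cleavage system, rose from 3.86, 3.81 and 3.95 to 5.21, 4.95 and 4.64, or 2.08-fold (limma adjusted p = 0.00757). Its oil values lay close to background, since the TrpnX controls reached 3.34, so the size of this fold is uncertain. Mtrr, which reactivates methionine synthase, was 1.45-fold higher (adjusted p = 0.0262), a call that held only without progesterone replicate 3 (adjusted p up to 0.0972 otherwise).

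In the supply of deoxynucleotides 1 of 11 genes was higher and 0 were lower, or 9.09% beside 5.92% of all genes, and 2 had an unadjusted p under 0.05. Dctd, the dCMP deaminase that feeds thymidylate synthesis, was at 6.12, 5.97 and 6.12 with oil and at 7.63, 7.75 and 7.31 with progesterone (2.82-fold up, log2 change 1.49 ± 0.131 SE, limma adjusted p = 0.00185). By contrast Rrm2, the small subunit of ribonucleotide reductase, was at 5.61, 4.40 and 7.19 with oil and at 5.29, 6.25 and 7.68 with progesterone (adjusted p = 0.679). It was highest on replicate 3 of both groups, as were the proliferation markers.

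In pyrimidine salvage Uck2, a uridine and cytidine kinase, was 1.75-fold up (log2 change 0.80 ± 0.131 SE, limma adjusted p = 0.0119). It was the only one of 14 measured genes past the threshold, or 7.14% beside 5.92% of all genes. This call was lost without oil replicate 1 or oil replicate 2 (adjusted p up to 0.0564). In purine salvage and interconversion 2 of 17 were higher and 2 lower, or 11.8% each way beside 5.92% and 5.83% of all genes. Itpa, which clears inosine triphosphate, was 1.34-fold and Aprt, the adenine salvage enzyme, 1.28-fold higher. Ak3, a mitochondrial kinase of AMP, was at 10.69, 10.71 and 10.76 with oil and at 10.22, 10.23 and 10.13 with progesterone, or 1.44-fold lower (adjusted p = 0.011, and 0.052 without oil replicate 2). Prpsap1, a protein associated with the phosphoribosyl pyrophosphate synthetases, was 1.30-fold lower (adjusted p = 0.0485). The call of Prpsap1 held only without progesterone replicate 1, as did that of Itpa, and that of Aprt was lost without any 1 array. Their adjusted p reached 0.154, 0.0734 and 0.126. With the replicate block 5 of the 69 genes were lower, beside 8.49% of all genes.

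**Figure D5:**
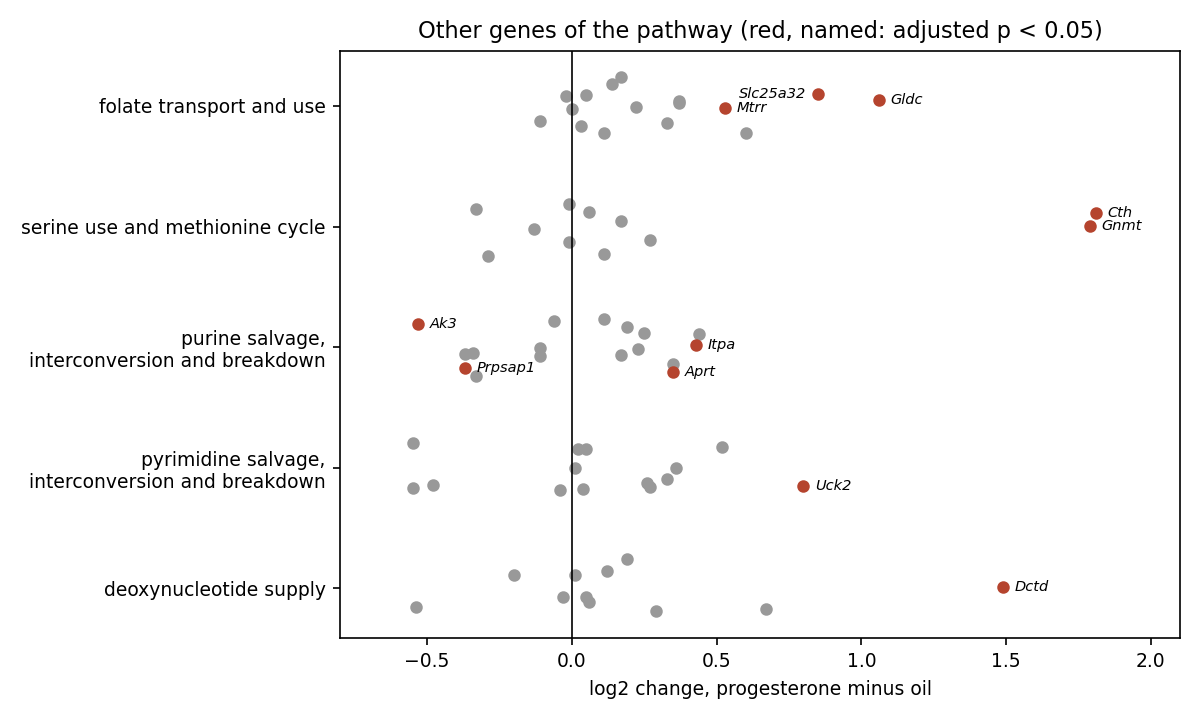
Log2 change (progesterone minus oil, x axis) of the 69 measured genes that feed or drain the pathways, 1 point per gene, by role. Red points with names passed an adjusted p under 0.05: 9 lie to the right of 0 and 2, Ak3 and Prpsap1, to the left.

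Within the groups the enzymes did not rank the arrays evenly. Of the 30, 15 were highest among the oil arrays on replicate 3, and 15 were highest among the progesterone arrays on replicate 2. Progesterone replicate 1 was the lowest of its group for 16. Set against the rest of its group, oil replicate 3 was higher by a median of 0.08 over the enzymes and by 1.36 over the proliferation markers. For progesterone replicate 3 these medians were 0.05 and 1.23, and for progesterone replicate 2 they were 0.10 and -0.12. Progesterone replicate 1 was lower by 0.10 over the enzymes and by 0.79 over the proliferation markers.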

How the data were processed

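Gene expression was measured in 3 oil and 3 progesterone samples. The deposited table holds log2 values of 45101 probe sets per array, made with Partek 6.6 and RMA per the submitters' processing notes. RMA as commonly run corrects background and normalizes quantiles, with its settings not stated in the labels. Array medians lay between 5.51 and 5.53. Depth does not apply, and the number of arrays limits precision.

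The platform annotation gave 1 symbol for 34945 probe sets, several for 932 and none for 9160, beside 64 controls. Each of 18193 genes was represented by its brightest probe set. The fit used lmFit and eBayes of limma 3.58.1 (R 4.3.3) with no filter or block, two-sided, adjusted over all genes. The procedure was tested on simulated data. Named genes were all members and up to 8 called genes per direction of the wider pathway. Aprt, Rrm2 and the pairing of Ppat with Paics were named after their values were seen. The members and lists were chosen with earlier results of these data known. Sequences came from RefSeq (GRCm38.p6).

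Deviations of same-numbered arrays from their group means correlated at 0.523, 0.141 and 0.636 across genes, each above 0.1. Arrays of unlike number correlated at -0.598 to 0.322. Each progesterone array correlated most with the oil array of its own number. For progesterone replicate 2 the values with oil replicates 1 and 3 were -0.0545 and -0.0557. Oil replicate 2, however, correlated more with progesterone replicate 1 (0.322) than with progesterone replicate 2 (0.141). Number 2 thus stood out as a pair only from the progesterone side. The labels do not say what a number shares. The reported fit has no block, and the fit with the number as a block is an alternative, given beside a result where it changes a call. Alternatives were quantile renormalization, centring on medians, an offset of 32, leaving out the lowest 25% or 50% of genes, the mean of probe sets, every probe set, trended and robust eBayes, the replicate block, fits without 1 array, a threshold of 0.01 and a minimum of 1.5-fold. The fits without 2 or 3 arrays in doubt were chosen after seeing the data.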

Additional observations from a re-analysis of the deposited data

How the results depend on the processing

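The count of 13 higher enzymes stayed within 1.5 times under quantile renormalization, centring, the offset of 32, both filters, the mean of probe sets, every probe set, trended and robust eBayes, at least 1.5-fold and the replicate block. It was 7 at an adjusted p of 0.01, 7 to 12 without 1 array, 8 without oil 3 and progesterone 3 and 0 without the 3 arrays with high S100a8. No enzyme was called lower in any of these limma fits. Over all genes, 1077 higher and 1060 lower became 328 and 243 at 0.01, and 674 and 642 with at least 1.5-fold. They became 586 and 441 without oil 3 and progesterone 3, and 0 and 0 without the 3 arrays. Without 1 array they ran from 379 to 848 and from 278 to 907. The 9 higher genes of the wider pathway became 5 at 0.01, 0 without the 3 arrays and 5 to 9 without 1 array. The 2 lower ones became 1 with centring, with the mean of probe sets and with every probe set, and 5 without the lowest 50% of genes and with the replicate block. They became 0 without oil 3 and progesterone 3, without the 3 arrays, at 0.01 and with at least 1.5-fold, and 0 to 2 without 1 array.

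Changes that turned sign belonged to genes that had not passed: Psph (-0.05 to 0.20 without 1 array, -0.17 without the 3 arrays), Adss (-0.11 to 0.05 without 1 array), and, with the mean of probe sets, Prps2 (0.02) and Ctps2 (-0.10). The difference of Aldh1l2 against Aldh1l1 ran from -0.12 to 0.38 without 1 array. The replicate block added Hprt and Nme1 to the higher enzymes and changed no other call of the 30. The cause of these shifts was not tested. Fewer arrays also lower the power. Levels near background, as for Tyms and for Gldc with oil, limit what a change can show.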
